A study of Mus musculus with 6 samples.

Results

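Non-homologous end joining and the response that guides it were followed here through 10 genes of mouse embryonic stem cells (mESCs): Xrcc5, Xrcc6, Prkdc, Dclre1c, Xrcc4, Lig4, Nhej1, Parp1, Trp53bp1 and Rif1. They were chosen by symbol, as a repair pathway linked to ZBTB24 in antibody class switching, and all 10 were found among the 43309 genes of the count table by their Ensembl identifiers. Each of the 10 passed the filter on low counts, which left 16823 genes tested. The samples were 6 mESC lines of strain J1 (129SV), 3 labelled Zbtb24 wild-type (2lox/+, called control) and 3 labelled Zbtb24 knockout (1lox/1lox). Each line gave 1 TruSeq Stranded mRNA library from 2 μg of total RNA, and all were grown in serum-containing medium on gelatin, with no feeder cells. Each line was a single clone, so a group stands for 3 clones.

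End joining repairs a DNA break by fastening its ends directly. The Ku heterodimer, made of the products of Xrcc6 (Ku70) and Xrcc5 (Ku80), grips the ends and recruits the kinase DNA-PKcs (Prkdc), which activates the nuclease Artemis (Dclre1c), and the ends are sealed by the ligase Lig4 with its partners Xrcc4 and Nhej1 (XLF). Parp1 senses breaks and marks chromatin with poly(ADP-ribose), while Trp53bp1 (53BP1) and Rif1 protect the ends from resection and so steer repair away from homologous recombination. Lymphocytes need this machinery to rearrange antigen receptor genes and to switch antibody class, and mutations of ZBTB24 cause ICF syndrome, an immunodeficiency with unstable centromeres and facial anomalies.

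Of the 10 genes, 9 differed between the groups. In the libraries labelled knockout Xrcc5, Xrcc6, Prkdc, Dclre1c, Xrcc4, Nhej1 and Parp1 rose, Lig4 and Trp53bp1 fell, and Rif1 did not pass the test. The test was the quasi-likelihood test of edgeR, with p-values adjusted by Benjamini-Hochberg over the 16823 genes and a false discovery rate (FDR) threshold of 0.05. Of all genes tested, 69.5% were called at this FDR, 34.4% as higher and 35.2% as lower, so calls were common in this comparison. All 10 genes averaged 100 counts or more, and of the 11115 genes that did so 77.1% were called, 4623 as higher and 3951 as lower. The median log2 fold change of the 10 genes was 0.27, beside 0.03 for those 11115 genes and -0.00 for all genes tested. The groups stood apart, without overlap of normalized values, for 9 of the 10 genes and for 71.5% of all genes tested. A log2 fold change of at least 0.5 in size was reached by 2 of the 10, Xrcc5 and Parp1, and by 33.9% of all genes tested. The changes of the other 8 genes were therefore small, although larger than the spread between lines for 7 of them.

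Library totals lay between 25042261 and 28838924 counts. Levels are given as cpm, counts relative to the library total after scaling by the trimmed mean of M-values (TMM). Zbtb24 itself went against the labels, with 489 to 512 counts in the control libraries and 888 to 1039 in the libraries labelled knockout (log2 fold change 0.99, standard error 0.050, adjusted p = 4.32e-23). The exons that gave these fragments are unknown from gene counts. Exchanged labels and a transcript that persists in the knockout lines cannot be told apart here, and exchanged labels would turn every direction below. The group is therefore called by its label throughout. All 8 markers of pluripotent cells were abundant, with at least 1852 counts in every library, and 7 of them rose while Zfp42 fell. All 5 fibroblast markers were lower in the libraries labelled knockout. Their summed level was 56.5 to 60.0 cpm in the control libraries and 9.12 to 9.86 cpm in those labelled knockout. Most of the control sum was Col1a1, with means of 41.1 cpm in the control libraries and 3.93 cpm in those labelled knockout. Postn had 7, 8 and 11 counts in the control libraries and 0 in every library labelled knockout. Twist2 had at most 10 counts in any library. Of the primitive endoderm markers, 3 of 5 were lower and 0 higher, at a summed 9.40 to 11.0 and 7.14 to 8.35 cpm. Of the trophoblast markers, 2 of 5 were higher and 2 lower, at 63.6 to 65.0 and 76.1 to 78.6 cpm. Most of that sum was Tfap2c, with means of 53.3 and 70.6 cpm. Eomes was also higher, while Gata3 and Cdx2 were lower. The 5 lymphocyte markers summed to at most 4.45 cpm in any library, and Il7r had 0 counts in all 6. The part of these markers in the results on end joining genes was not tested, and fewer cells of a type and less RNA per cell cannot be told apart in bulk samples.

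Of the Ku genes, Xrcc5 rose strongly and Xrcc6 slightly. Xrcc5 (ENSMUSG00000026187, mm10 chromosome 1, 72307421 to 72394952, plus strand) had 158, 156 and 158 cpm in control lines 1 to 3 and 269, 275 and 277 cpm in lines 1 to 3 labelled knockout. Every line labelled knockout lay well above every control line. The rise was 1.74-fold (log2 fold change 0.80, standard error 0.025, adjusted p = 3.57e-31). Xrcc6 (ENSMUSG00000022471, chromosome 15, 81987835 to 82040085, plus strand) had 101, 97.1 and 99.6 cpm in the control lines and 119, 112 and 117 cpm in those labelled knockout. Its groups did not overlap either, and it rose 1.17-fold (log2 fold change 0.22, standard error 0.030, adjusted p = 6.74e-09).

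Parp1, the sensor of breaks, was the most highly expressed of the 10 genes and rose nearly as much as Xrcc5. Parp1 (ENSMUSG00000026496, chromosome 1, 180568924 to 180601254, plus strand) had 633, 620 and 630 cpm in the control lines and 1086.9, 1089.3 and 1074.6 cpm in the lines labelled knockout. Lines of a group differed by at most 1.02-fold in Parp1, so its rise of 1.73-fold was far outside their spread (log2 fold change 0.79, standard error 0.022, adjusted p = 1.25e-33).

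**Figure D1:**
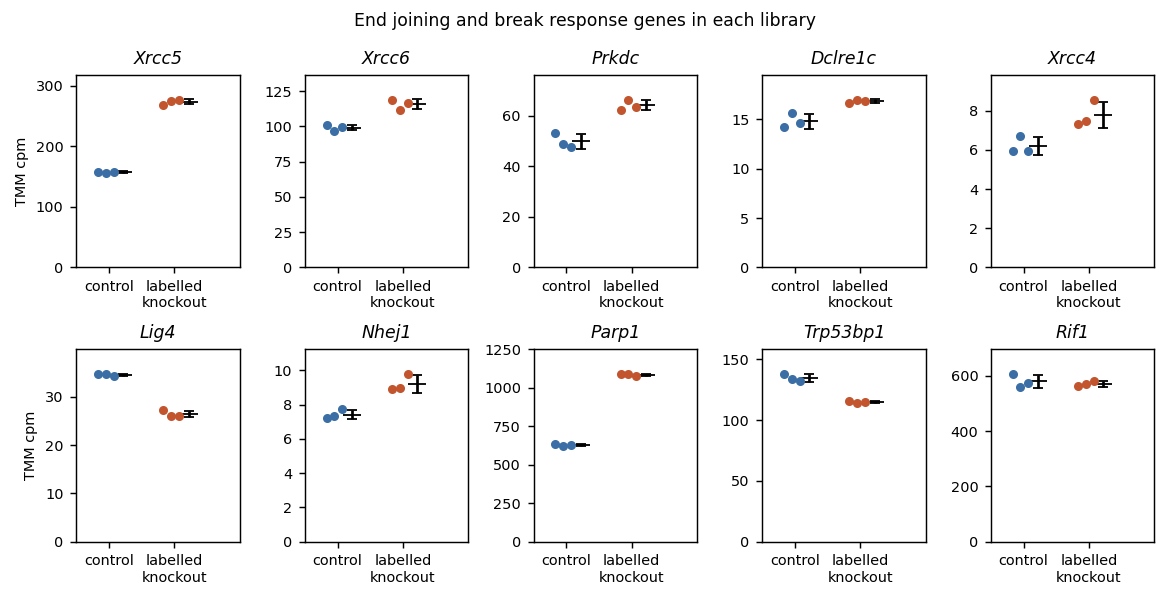
Each panel shows 1 gene, with TMM-scaled cpm on a linear axis from 0, the 3 control lines in blue, the 3 lines labelled knockout in orange, and the mean with SD beside them. The groups stand apart in every panel but that of Rif1, and Xrcc5 and Parp1 show the widest gaps, with 1.74-fold and 1.73-fold rises.

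The promoter sequences of Xrcc5 and Parp1 are shown because these are the 2 genes with the largest rises, and that of Lig4 because it is the ligase gene that fell. They are RefSeq windows of GRCm38.p6, each with 250 bases before and 50 after the annotated start, 5′ to 3′ on the strand of the gene. Capitals mark the word CCAAT, the GC box (written GGGCGG) and a core of the binding word of NRF1 (written GCGCATGC), searched on both strands. The windows are chr1:72307171-72307470 for Xrcc5, chr1:180568641-180568940 for Parp1 and chr8:9977631-9977930 (minus strand) for Lig4.
Xrcc5: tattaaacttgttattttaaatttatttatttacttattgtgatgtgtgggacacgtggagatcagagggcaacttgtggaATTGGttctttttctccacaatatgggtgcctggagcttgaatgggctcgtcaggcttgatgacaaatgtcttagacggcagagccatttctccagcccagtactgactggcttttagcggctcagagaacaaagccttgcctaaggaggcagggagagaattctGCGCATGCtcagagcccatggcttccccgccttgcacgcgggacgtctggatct
Parp1: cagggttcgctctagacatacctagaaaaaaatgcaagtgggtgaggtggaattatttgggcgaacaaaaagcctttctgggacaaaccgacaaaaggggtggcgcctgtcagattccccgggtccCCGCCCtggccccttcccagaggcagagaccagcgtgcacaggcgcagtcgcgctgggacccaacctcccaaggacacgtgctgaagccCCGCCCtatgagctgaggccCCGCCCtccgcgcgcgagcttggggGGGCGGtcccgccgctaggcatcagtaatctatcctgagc
Lig4: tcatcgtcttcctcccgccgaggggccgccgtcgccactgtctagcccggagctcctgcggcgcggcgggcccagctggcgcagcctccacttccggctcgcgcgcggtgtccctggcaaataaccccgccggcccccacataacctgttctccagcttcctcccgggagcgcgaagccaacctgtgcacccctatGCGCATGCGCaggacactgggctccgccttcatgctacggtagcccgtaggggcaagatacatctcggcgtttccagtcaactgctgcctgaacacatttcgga

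These windows differ in composition. That of Xrcc5 was 48.0% G or C with 9 CG dinucleotides, that of Parp1 62.0% with 20, and that of Lig4 66.3% with 30, beside medians of 52.7% and 7 over the 32851 windows of the RefSeq table. The GC box was found 4 times in the Parp1 window and 0 times in the Xrcc5 and Lig4 windows shown, and occurred in 35.7% of all windows. The NRF1 word was found in the windows of Xrcc5 and Lig4 and in 2.71% of all windows, and in Lig4 its matches on both strands overlap. Lig4 has a further window, chr8:9976262-9976561, which held 2 GC boxes and 0 NRF1 words. The word CAGGACCT, reported as a core of the ZBTB24 binding motif, was in none of the 9 windows of the 8 genes of this set that the table held, and in 1.99% of all windows. A word in a window is a description of its letters, and its absence says nothing about binding of the factor.

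Prkdc and Dclre1c, the kinase and the nuclease that prepare ends for ligation, both rose modestly. Prkdc (ENSMUSG00000022672, chromosome 16, 15637866 to 15842235, plus strand) had 53.1, 49.0 and 47.5 cpm in the control lines and 62.5, 66.4 and 63.7 cpm in the lines labelled knockout. Its lowest value labelled knockout was above the highest control, and the rise was 1.28-fold (log2 fold change 0.36, standard error 0.038, adjusted p = 8.94e-12). Dclre1c (ENSMUSG00000026648, chromosome 2, 3424131 to 3464130, plus strand) had 14.2, 15.6 and 14.6 cpm against 16.7, 17.0 and 16.9 cpm. Here control line 2 came close to the other group, and the rise was 1.14-fold (log2 fold change 0.19, standard error 0.060, adjusted p = 0.00499).

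The genes of the ligation step moved in different directions. Lig4 (ENSMUSG00000049717, chromosome 8, 9969049 to 9977686, minus strand), the ligase itself, had 34.7, 34.7 and 34.3 cpm in the control lines and 27.2, 26.0 and 26.1 cpm in those labelled knockout. It fell to 0.764 of the control level (log2 fold change -0.39, standard error 0.045, adjusted p = 1.27e-10), with no overlap of the groups. Its scaffold Xrcc4 (ENSMUSG00000021615, chromosome 13, 89774027 to 90089608, minus strand) had 5.93, 6.73 and 5.94 cpm against 7.35, 7.47 and 8.57 cpm. Xrcc4 rose 1.26-fold (log2 fold change 0.33, standard error 0.091, adjusted p = 0.00111), and line 3 labelled knockout was its highest. With each library left out in turn its log2 fold change lay between 0.26 and 0.40. Nhej1 (ENSMUSG00000026162, chromosome 1, 74967139 to 75125200, minus strand), whose product bridges ends together with XRCC4, had 7.21, 7.32 and 7.72 cpm against 8.88, 8.94 and 9.78 cpm. The groups did not overlap, and the rise was 1.24-fold (log2 fold change 0.31, standard error 0.082, adjusted p = 7.26e-04). Xrcc4 and Nhej1 had the fewest counts of the set, 163 to 276 per library over both genes, and their standard errors were the widest.

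Of the genes that shield ends from resection, Trp53bp1 fell slightly and Rif1 did not differ beyond the spread between lines. Trp53bp1 (ENSMUSG00000043909, chromosome 2, 121193281 to 121271407, minus strand) had 138, 134 and 132 cpm in the control lines and 116, 114 and 115 cpm in those labelled knockout. All lines labelled knockout lay below all control lines, at 0.856 of their level (log2 fold change -0.23, standard error 0.028, adjusted p = 9.71e-10). After the GC and length correction the log2 fold change of Trp53bp1 was -0.13, still called. That correction moved the median of all genes tested from -0.00 to 0.09. Rif1 (ENSMUSG00000036202, chromosome 2, 52072832 to 52122383, plus strand), which also sets replication timing, had 607, 560 and 574 cpm against 562, 571 and 583 cpm. Its groups overlapped, and control line 1 was the highest of the 6 (log2 fold change -0.02, standard error 0.025, adjusted p = 0.48). Without control line 1 the log2 fold change of Rif1 was 0.01, and with library totals in place of TMM it was -0.07 and passed the threshold (adjusted p = 0.0105). Library totals also moved the median of all genes tested to -0.05.

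Strand was used in the counting, so transcripts of genes on the opposite strand at Xrcc4, Xrcc6, Dclre1c and Trp53bp1 were counted apart. On the same strand as 1 of the 10 genes only Gm24498 and Mir6904 overlapped, within Xrcc4 and Parp1, and neither exceeded 2 counts in any library.

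Between genes, levels were compared per kilobase of exon, as cpm divided by exon length in kilobases (FPKM). In the control lines Parp1 was highest with 119 ± 1.2 FPKM (SD, n = 3), followed by Xrcc5 with 61.5 ± 0.57 and Rif1 with 55.2 ± 2.3 FPKM. Xrcc6 was at 22.2 ± 0.47 and Trp53bp1 at 9.50 ± 0.20 FPKM. Sensor, Ku and end-shielding genes thus stood above the core genes of processing and ligation. Lig4 with 6.65 ± 0.039 and Nhej1 with 6.63 ± 0.24 FPKM did not differ beyond their spread, and Prkdc followed with 3.78 ± 0.22 FPKM. Dclre1c with 1.59 ± 0.079 and Xrcc4 with 1.47 ± 0.11 FPKM were lowest, and they did not differ beyond about their spread. In the libraries labelled knockout Parp1 reached 205 ± 1.5 and Xrcc5 107 ± 1.5 FPKM, while Rif1 was at 54.5 ± 1.0, so that Xrcc5 then stood clearly above Rif1. Lig4 at 5.08 ± 0.13 then lay below Nhej1 at 8.23 ± 0.45 FPKM. Per kilobase of the longest transcript, Rif1 passed Xrcc5 and Nhej1 passed Lig4 in the control lines, so the order within these pairs depends on the length used.

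Since the products of several of these genes work as partners, ratios of partner genes were formed within each library, where the scaling of libraries has no effect. The log2 ratio of Xrcc5 to Xrcc6 counts was 0.64, 0.68 and 0.67 in the control lines and 1.17, 1.30 and 1.25 in those labelled knockout. It was 0.58 higher in the latter, a 1.49-fold shift towards the Ku80 transcript, and the groups did not overlap. For Lig4 to Xrcc4 the log2 ratio was 2.54, 2.36 and 2.53 against 1.88, 1.80 and 1.60. This ratio fell by 0.72 on the log2 scale, the largest shift of the 4 pairs. Rif1 to Trp53bp1 had log2 ratios of 2.14, 2.07 and 2.12 against 2.28, 2.32 and 2.34, a difference of 0.21 without overlap. Prkdc to Dclre1c had 1.90, 1.65 and 1.70 against 1.90, 1.97 and 1.91, a difference of 0.18, and control line 1 overlapped the other group. In a two-sided exact permutation test p was 0.1 for the first 3 pairs, the smallest p that 3 lines against 3 allow, and 0.2 for Prkdc to Dclre1c. After Benjamini-Hochberg adjustment over the 4 pairs these were 0.133 and 0.2, so no pair could pass 0.05 in this design. Xrcc5, Lig4 and Rif1 lie in stretches of the genome with shifted fold changes, described below. The part of these stretches in the ratios was not tested.

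**Figure D2:**
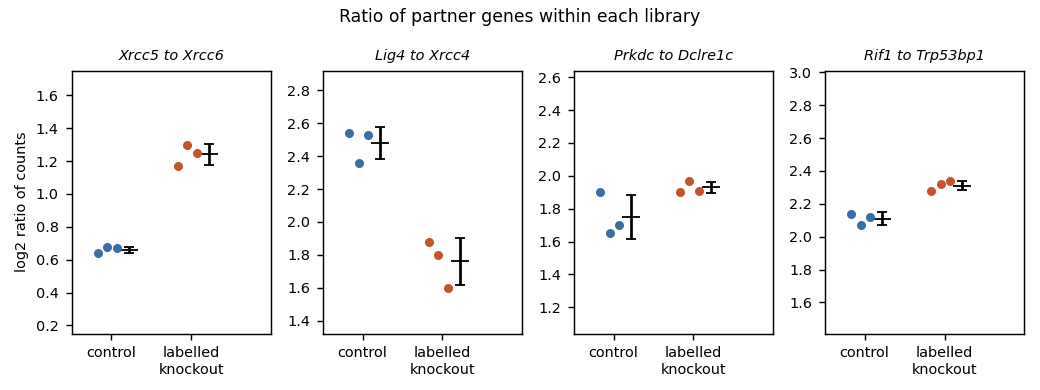
The panels plot the log2 ratio of the counts of 2 partner genes in each library, with equal spans of the vertical axes, control lines in blue, lines labelled knockout in orange, and mean with SD in black. The ratio of Xrcc5 to Xrcc6 was 0.58 higher and that of Lig4 to Xrcc4 differed by -0.72 in the libraries labelled knockout, and the groups overlap only for Prkdc to Dclre1c.

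The position of the genes was examined because some stretches of the genome carried shifted fold changes in these libraries. Each gene was set beside the median log2 fold change of the other genes tested in its 20 Mb window. Both genes with a rise of over 0.5 lie on chromosome 1, where the windows themselves were high. Xrcc5 at 0.80 stood in a window (60000001 to 80000000) with a median of 0.57 over 127 genes, of which 81.1% were above 0, and exceeded 91 of them. Parp1 at 0.79 stood in a window (180000001 to 200000000) with a median of 0.49 over 113 genes and exceeded 82 of them. Relative to these medians the rises of Xrcc5 and Parp1 came to 0.23 and 0.30. Nhej1, in the same window as Xrcc5, was 0.26 below its median, so its log2 fold change relative to its neighbours was -0.26 although the gene was called as higher. Lig4 lies at the start of chromosome 8, in a window with a median of -0.60 over 84 genes, of which 10.7% were above 0. Its own value of -0.39 was 0.21 above that median. Rif1 lies in a window of chromosome 2 (40000001 to 60000000) with a median of -0.41 over 44 genes and stood 0.39 above it, or 0.13 above it when window genes averaging under 100 counts were left out. The windows of the other 5 genes had medians between -0.07 and 0.07. Relative to them Prkdc stood at 0.43, Xrcc4 at 0.28, Xrcc6 at 0.24, Dclre1c at 0.12 and Trp53bp1 at -0.16. Thus 4 of the 7 genes called as higher, Prkdc, Xrcc4, Xrcc6 and Dclre1c, lay outside shifted windows, and the part of the shifted windows in the other changes was not tested. Relative to window medians, Xrcc5 stood at 0.23 beside 0.24 for its partner Xrcc6, and Lig4 at 0.21 beside 0.28 for Xrcc4. Rif1 stood at 0.39 beside -0.16 for Trp53bp1. The part of the windows in the ratios of these partner genes was not tested either.

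**Figure D3:**
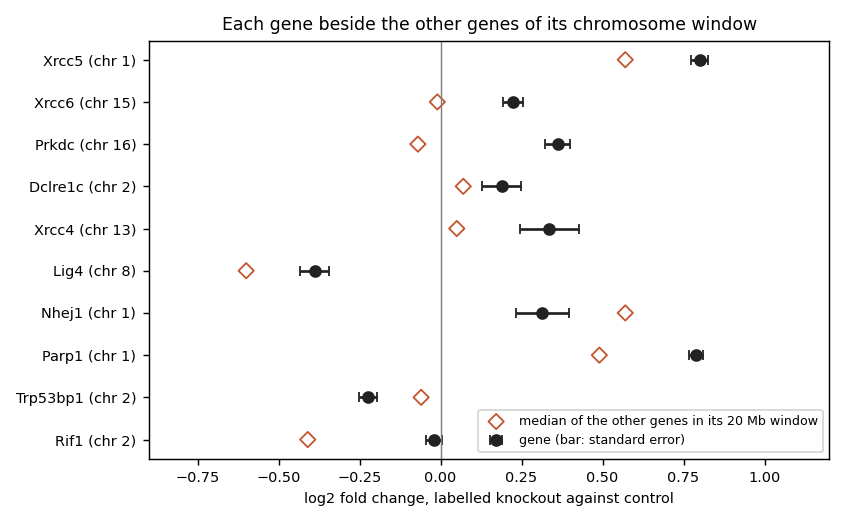
The log2 fold change of each gene (filled circle, bar for the standard error) is plotted beside the median of the other genes of its 20 Mb window (open diamond), with labelled knockout against control on the horizontal axis. Diamonds lie at 0.57 and 0.49 for the genes of chromosome 1, at -0.60 for Lig4 and at -0.41 for Rif1, and near 0 for the remaining genes.

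A start site within 1 kb of that of a gene on the opposite strand was found for 3 of the 10 genes, and these neighbours were measured beside them. Prkdc starts 466 bases from Mcm4, a subunit of the replicative helicase. Mcm4 had 312 ± 5.5 cpm in the control lines and 408 ± 2.1 cpm in those labelled knockout (SD, n = 3 each). Its log2 fold change was 0.39 beside 0.36 for Prkdc (standard error 0.024, adjusted p = 8.67e-20 for Mcm4). Lig4 starts 21 bases from Abhd13, which fell from 53.7 ± 0.32 to 35.8 ± 0.25 cpm (SD, n = 3 each). Its log2 fold change was -0.59 beside -0.39 for Lig4 (standard error 0.038, adjusted p = 9.67e-19 for Abhd13). In these pairs both genes moved the same way, but Abhd13 lies in the same window of chromosome 8 as Lig4, whose median was -0.60. The part of that window in their changes was not tested. The starts of Xrcc4 and Tmem167 are 485 bases apart, and Tmem167 was lower, at -0.16 on the log2 scale (standard error 0.030, adjusted p = 7.10e-06), opposite to the 0.33 of Xrcc4.

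The rest of the break repair pathway was described with lists of genes. Of 9 other end-joining factors tested, 5 were higher, 3 lower and 1 did not pass the test, with a median log2 fold change of 0.17, beside the 69.5% of all genes that were called. Tdp2, which removes trapped topoisomerase from ends, rose most among those averaging 100 counts or more (log2 fold change 0.62, standard error 0.033, adjusted p = 1.87e-22). The gap-filling polymerase gene Poll was at 0.41, or 0.65 after the GC and length correction. Cyren, a regulator of Ku, was at 0.23 (adjusted p = 0.017). Its call ended with DESeq2, with library totals and with a dispersion fixed at 0.04 in edgeR's exact test. The call also ended without control line 1, control line 3 or line 2 labelled knockout. Dntt, the polymerase of lymphocytes that adds untemplated bases, had at most 1 count in any library and was not tested. The number called in this list was 5 in place of 8 with DESeq2, without control line 1 and without line 2 labelled knockout, each time with 4 higher and 1 lower. With the GC and length correction 6 were higher and 1 lower.

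Among 11 genes tested that act with 53BP1, in the signalling before it or at ends after it, 4 were higher, 3 lower and 4 did not pass the test, with a median of 0.03. These shares were close to those of all genes tested, 34.4% higher and 35.2% lower. The histone variant gene H2afx, whose product is phosphorylated around breaks, fell from 204 ± 15 to 88.2 ± 4.1 cpm (SD, n = 3 each), the largest change of any repair gene listed that averaged 100 counts or more (log2 fold change -1.21, standard error 0.035, adjusted p = 9.20e-33). After the GC and length correction H2afx was at -0.86. Shieldin is the complex that works with 53BP1 and Rif1 at ends. Its subunit genes differed in direction, Mad2l2 being higher (0.47, or 0.73 after the GC and length correction), while Shld1 (-0.37) and Shld2 (-0.25) were lower. The apical kinase gene Atm and the adaptor gene Mdc1 were higher, at 0.35 and 0.29.

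Of the 12 genes of poly(ADP-ribose) signalling and alternative end joining, 6 were higher, 3 lower and 3 did not pass the test, with a median of 0.08, beside 69.5% of all genes called. The split depended on the setting, with 9 higher and 1 lower after the GC and length correction, 6 and 1 with no filter, 6 and 1 with TMM from genes outside chromosomes 1, 6, 8 and Y, and 5 and 1 with DESeq2. Without line 1 labelled knockout it was also 6 and 1. Hpf1, the cofactor that directs PARP1 to serine, fell while Parp1 rose, from 70.7 ± 0.73 to 48.1 ± 0.98 cpm (SD, n = 3 each, log2 fold change -0.55, standard error 0.035, adjusted p = 1.94e-19), and its window on chromosome 8 had a median of -0.20. Rad50, of the complex that tethers ends, was at 0.32 and Polq, the polymerase of alternative end joining, at 0.19, both called as higher. Polq was at 0.30 after the GC and length correction, and at 0.13 without control line 2, where it was not called (adjusted p = 0.0523). Lig3 and Xrcc1, the ligase and scaffold of the alternative route, had 0.04 (standard error 0.026) and -0.04 (standard error 0.031) and did not pass the test. After the GC and length correction both were called as higher, at 0.12 and 0.22, beside a median of 0.09 for all genes tested in that setting.

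In the homologous recombination list 14 of 15 genes were higher and 1 lower, with a median of 0.30. The share called as higher was 34.4% over all genes tested. Of the 11115 genes averaging 100 counts or more, 4623 were called as higher. Exo1, a nuclease that resects ends, rose most among those averaging 100 counts or more (log2 fold change 0.72, standard error 0.028, adjusted p = 1.06e-27), followed by Rad51c at 0.63 and Bard1 at 0.57. The windows of Exo1 and Bard1 on chromosome 1 had medians of 0.43 and 0.57, while that of Rad51c had 0.03. Rad52, also called as higher at 0.45, lay in a window with a median of 0.44. The part of these windows in the changes of the list was not tested. Rad51d was the gene that was lower, at -0.43. Of the 6 genes that start V(D)J recombination or class switching, Rag1 and Rag2 had at most 1 count and were not tested, and the 4 others were higher. They included the general repair genes Msh6 at 0.32 and Ung at 0.22.

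**Figure D4:**
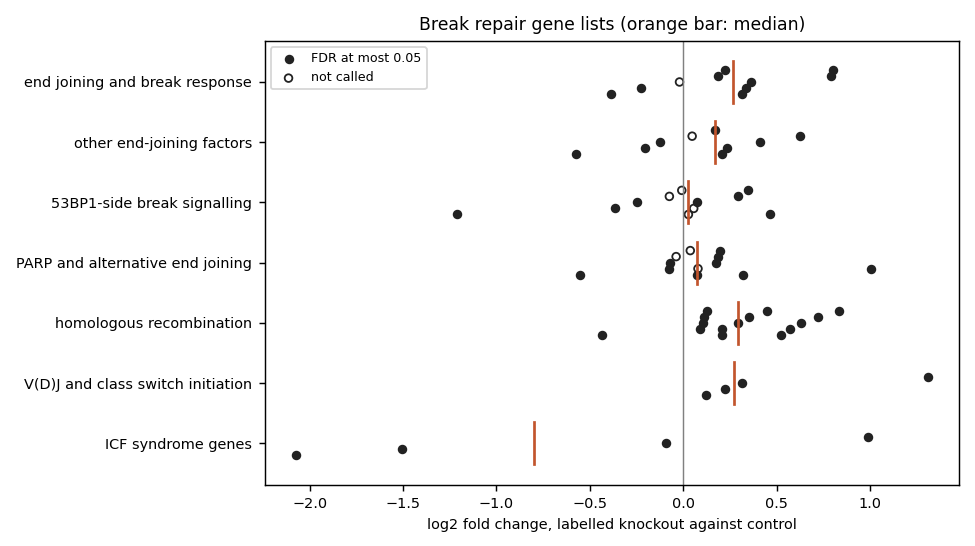
Each point is 1 gene tested, placed by its log2 fold change (labelled knockout against control) in the row of its list, filled where the FDR was at most 0.05 and open otherwise, with the list median as an orange bar. The 10 end joining and break response genes have a median of 0.27, and most points of the homologous recombination row lie to the right of 0.

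The other ICF syndrome genes were measured beside these. Dnmt3b, a DNA methyltransferase, fell from 431 ± 13 to 102 ± 2.9 cpm (SD, n = 3 each, log2 fold change -2.07, standard error 0.028, adjusted p = 6.72e-47), and Cdca7 from 142 ± 3.4 to 49.8 ± 2.2 cpm (log2 fold change -1.50, standard error 0.033, adjusted p = 6.67e-38). Hells, the remodeller that CDCA7 binds, fell by 0.09 on the log2 scale (standard error 0.025, adjusted p = 0.00112). After correction for GC content and length Hells was at -0.04 and was not called (adjusted p = 0.127), while the median of all genes tested was 0.09. None of the 10 end joining and break response genes changed as much as Dnmt3b or Cdca7.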

How the data were processed

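RNA of 6 mESC lines was sequenced with the TruSeq Stranded mRNA protocol. The deposited values are raw fragment counts per gene, which the authors made by discarding rRNA reads (Bowtie2 2.1.0), mapping to mm10 (TopHat2 2.0.10) and counting sense fragments unique to 1 gene of GENCODE M4 (HTSeq 0.6.1). Symbols, positions and exon lengths were taken from GENCODE M21 on the same build (42425 of 43309 genes matched), and promoters from RefSeq (GRCm38.p6). Genes reaching 10 counts in any library were tested in edgeR 4.0.16 (R 4.3.3) with TMM, glmQLFit and glmQLFTest. Ratios had 0.5 counts added and were tested with scipy 1.17.1. Alternatives changed the scaling, filter, test (DESeq2 1.42.0 included), dispersion, GC and length, replicate block and libraries.

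Genes and lists were chosen with earlier results of these data known. Named were the 10 genes, the ICF genes, divergent neighbours within 1 kb, and at most 3 genes per other list with the largest called changes (averaging 100 counts or more, no overlap between groups). Dntt, Shld2, Atm, Mdc1, Lig3, Xrcc1, Rad51d, Rag1, Rag2 and Rad52 were added after their values were seen. Shld3 was not analysed here, and some listed genes are not reported here by name. The p-values measure the spread between these lines only. For some lines that spread was close to counting noise, which alone gives a chi-square per gene of about 1. The value was 1.14 for control lines 2 and 3 and reached 2.24 for lines 1 and 3 labelled knockout. Depth was 25042261 to 28838924 counts per library.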

Additional observations from a re-analysis of the deposited data

How the results depend on the processing

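The direction and call of 9 of the 10 genes held under other scalings, filters and tests and with 1 library left out, although Trp53bp1 moved from -0.23 to -0.13 with the GC and length correction. The median log2 fold change of all genes tested was 0.09 with that correction and -0.05 with library totals, beside -0.00 in the main fit. With library totals Rif1 was also called, making 10. With a dispersion fixed at 0.04 for all genes in edgeR's exact test 2 of the 10 genes were called, Xrcc5 and Parp1, beside 25.8% of all genes tested. Xrcc4 (0.33), Xrcc6 (0.22), Lig4 (-0.39), Prkdc (0.36), Nhej1 (0.31), Dclre1c (0.19) and Trp53bp1 (-0.23) kept their log2 fold changes but not the call, with adjusted p between 0.263 and 0.679. The counts in the other lists were then 1 of end-joining factors, 1 of 53BP1-side signalling, 1 of alternative end joining, 3 of homologous recombination and 1 of class switch initiation. With a log2 fold change of at least 0.5 also required, 2 of the 10 genes were called, beside 33.9% of all genes tested. In those lists, of 9, 11, 12, 15 and 4 genes tested, 2, 1, 2, 5 and 1 were then called. DESeq2 called 5 of the end-joining factors in place of 8, and leaving out 1 library gave 5 to 8. Outside the 10 genes, Xrcc1 turned to 0.22 with the GC and length correction and Lig3 to -0.01 with library totals. Xrcc1 was also called at -0.09 with library totals and Lig3 at 0.06 without control line 1. For Rif1 the log2 fold change was -0.07 with library totals, which passed the threshold, 0.02 with the GC and length correction and -0.05 to 0.01 with 1 library left out.

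Relative to 10 Mb windows, chosen after the data were examined, Lig4 stood at 0.17, Parp1 at 0.34, Trp53bp1 at -0.13 and Rif1 at 0.45, and with window genes of at least 100 counts, also chosen then, Trp53bp1 was at -0.24 and Rif1 at 0.13. By longest transcript 6 of the 10 genes kept their rank of level. The replicate numbers only name the lines, and deviations of same-numbered lines correlated at 0.00489, 0.0749 and 0.0123, so the numbers were not taken to pair them. With the replicate number as a block 9 of the 10 genes were called, and 11801 genes were called in all. The ratio differences stayed at 0.58, -0.72, 0.18 and 0.21, because a block cannot change them with 1 line of each group per number. The standard errors were widest for Xrcc4, Nhej1 and Dclre1c, which had the fewest counts, and the cause of the changes between settings was not tested.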

Other observations

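Other genes of break repair also lay in windows whose genes were shifted together. On chromosome 1, Bard1, the partner of BRCA1, had a log2 fold change of 0.57 in a window with a median of 0.57, and exceeded 62 of its 127 other genes. Exo1 at 0.72 stood in a window with a median of 0.43. At the far end of chromosome 6, Rad52 at 0.45 stood in a window with a median of 0.44. Outside such windows, H2afx at -1.21 was lower than all but 15 of the 203 other genes of its window, whose median was 0.02. Rad51c at 0.63 and Rad51d at -0.43 lie in the same window of chromosome 11, whose medians without each of them were 0.03 and 0.04. Zbtb24 at 0.99 exceeded 75 of the 76 other genes of its window.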
